A study of Mus musculus with 48 samples.

Results

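Permanent middle cerebral artery occlusion (MCAO) was compared at 12 h with unoperated control cortex by bulk RNA-seq of mouse brain, in which reads are taken from the 3′ ends of polyadenylated transcripts. The members were chosen by label: 5 libraries labelled MCAO 12 h (A to E) and 4 labelled control (A to D), which are 9 of the 48 libraries of the series, with all 46983 listed genes. The mice were C57Black/6, male by the study's methods and 3 months old. In the MCAO mice the artery was coagulated and cut through a hole in the skull under isoflurane and was not reopened, a model in which the infarct is small and lies in the parietal cortex. The sampled block held injured tissue together with tissue that was spared, and the series text speaks of a forebrain hemisphere. The controls were intact cortex of mice with no surgery. A further 4 libraries from sham-operated mice at 12 h (A to D) were set beside them, since occlusion, anaesthesia, surgery, the interval and the time of day cannot be told apart against the unoperated control alone. The study's methods describe sham surgery as the whole operation with the artery left uncoagulated. The study's text counts mice per condition, but the labels give each library only a letter, so that p-values measure the spread between libraries.

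Loss of blood flow stops the supply of oxygen and glucose, and neurons in the core of the territory depolarise and die. Surviving cells at its edge mount a heat shock, metal and oxidant response, and injured tissue and resident glia release cytokines and chemokines that recruit leukocytes from the blood. Astrocytes become reactive, a state marked by the filament protein GFAP and by secreted protease inhibitors, while vessels of the blood-brain barrier change their junctions and transporters. Neutrophils are among the first blood cells to arrive in an infarct.

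Libraries held between 1699600 and 2780229 counts on genes at MCAO 12 h and between 1756467 and 1827617 in the control, against 1832129 to 2657324 in the sham. Between 16783 and 18153 genes had at least a count at MCAO 12 h and 16910 to 17024 in the control. Spike-in RNA, added in a fixed amount per library, took 4.41, 4.34, 5.09, 5.44 and 5.29% of the gene and spike-in counts in MCAO libraries A to E and 4.04, 4.04, 4.07 and 3.94% in the controls. Every MCAO library was above every control library, with a difference in means of 0.888 percentage points (exact two-sided permutation p = 0.0159, the smallest that arrangements of 5 against 4 libraries can give, and adjusted p = 0.143 over 10 tests, of 5 library measures in MCAO and in sham against the control). Sham libraries A to D were at 5.37, 4.52, 4.47 and 3.83%, a range that took in the controls and overlapped with the MCAO libraries. Of 77 genes called higher below, MCAO library C held the highest level for 29 and MCAO library E for 29, whereas MCAO library A held the lowest for 32.

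Levels are given as CPM, the counts of a gene per 1000000 gene counts of its library after trimmed-mean (TMM) scaling, and a floor of 3 counts stands for about 1.69 CPM in a control library. Reads come from transcript ends, so a level does not grow with transcript length. Each gene was tested with edgeR's quasi-likelihood test in a model of all 48 libraries, p-values were adjusted by the Benjamini-Hochberg method over 19970 genes, and a gene was called where the adjusted p was below 0.01 and the log2 fold change exceeded 0.58 in size. Standard errors (SE) of log2 fold changes were worked back from that test, as the unshrunk log2 fold change in size over the square root of its F statistic. The log2 fold changes printed here are the slightly shrunken values of the same fit.

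At MCAO 12 h, 171 genes were called against the control (0.856% of the genes tested), 77 of them higher (0.386%) and 94 lower (0.471%). The counts of calls in each list below are read beside these shares, and no list was tested as a set. Rises were larger than falls: the median log2 fold change was 1.87 among genes called higher and -1.15 among genes called lower, beside 0.04 over all genes tested. The rises included protease inhibitors (*Timp1*, *Serpina3n*), chemokines (*Ccl12*, *Ccl4*, *Ccl6*), chaperones (*Hspa1a*, *Hspb8*), metallothioneins (*Mt1*, *Mt2*) and transcripts of neutrophils and red blood cells. The falls included the glycine-cleaving enzyme gene *Gldc*, the ion channel gene *Tmem63b* and the clock output gene *Dbp*. They also included *Vtn* and *Acta2*, 2 of 12 pericyte and smooth muscle markers tested. The median gene called higher went from 18.7 to 81.4 CPM and the median gene called lower from 85.5 to 35.8 CPM. A log2 change of at least 2 in size was seen for 33 of the 77 rises and for 4 of the 94 falls. Of the rises, 26 had a control mean under 5 CPM and 12 had 3 counts or fewer in each control library. None of the falls did. At such control levels a fall has little room to be called, so the sizes of rises and falls are not compared on equal terms. Over all genes tested, the MCAO libraries lay wholly above the controls for 575 genes (2.88%) and wholly below for 602 (3.01%). Of the genes called, this held for 63 of 77 higher and 91 of 94 lower.

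Against the same 4 controls, the sham libraries gave 7 calls (0.0351%), 1 higher and 6 lower. MCAO 12 h against sham 12 h gave 82 calls (0.411%), 69 higher (0.346%) and 13 lower (0.0651%). This contrast is the test of the difference between MCAO and sham. With only those 2 groups in the fit it gave 13 higher and 0 lower, and without sham C 21 higher and 0 lower. Leaving out a single library left between 71 (without control B) and 171 calls (without MCAO B) against the control, and with only the 9 libraries in the fit 63 genes were called. Scaling by spike-ins instead moved the median of all genes from 0.04 to -0.22 and the split of calls to 38 higher and 185 lower.

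**Figure D1:**
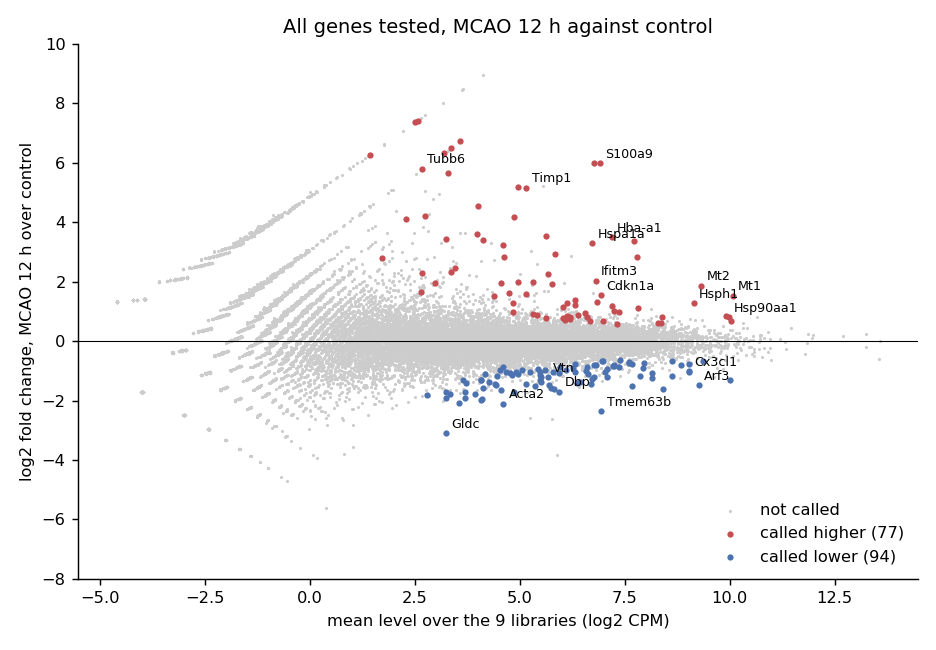
Each point is a gene, with the mean level over the 9 MCAO 12 h and control libraries on the x axis (log2 CPM) and the log2 fold change of MCAO 12 h over control on the y axis. The 77 genes called higher (red) reach far from the line at 0 at low and middle levels, whereas the 94 genes called lower (blue) mostly lie within a few log2 units of it.

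Heat shock proteins are chaperones that bind unfolded proteins, and their genes are switched on by heat shock factor, which reads inverted GAA units in promoters. Of 24 heat shock proteins and co-chaperones tested, 4 were called higher and none lower, with a median log2 fold change of 0.50 (0.04 over all genes tested), and under spike-in scaling 1 stayed called. *Hspa1a*, the stress-inducible member of the main cytosolic chaperone family (chromosome 17, 34969190 to 34972156, GRCm38), was at 9.64, 32.5, 723, 64.1 and 52.4 CPM in MCAO libraries A to E, at 6.14, 7.30, 9.24 and 8.57 CPM in the sham and at 8.37, 8.99, 37.3 and 17.1 CPM in the control. Library C stood far above the other MCAO libraries, and libraries A and B were within the control range. The log2 fold change was 3.29 (SE 0.74, adjusted p = 0.00771), and without library C it was 1.12 (adjusted p = 0.323) and without control C 3.93. The call was lost for *Hspa1a* with MCAO C or any 1 control left out (adjusted p up to 0.323). *Hspa1a* was not called with only the 2 groups compared in the fit (the 2-group fit, adjusted p = 0.107), nor with spike-in scaling (adjusted p = 0.01001). Its copy *Hspa1b*, whose reads can be split or lost because the sequences are nearly identical, was also highest in C and lowest in A, with 4.82, 48.1, 499, 16.5 and 31.6 CPM at MCAO 12 h and 4.46, 11.2, 32.7 and 17.1 CPM in the control (not called).

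*Hspb8*, a small heat shock protein that works with BAG3 in selective autophagy, was at 43.02, 37.9, 53.2, 25.9 and 30.4 CPM at MCAO 12 h, 23.5, 22.9, 7.76 and 17.9 CPM in the sham and 13.4, 14.6, 10.7 and 11.4 CPM in the control. MCAO and control libraries did not overlap, and the log2 fold change of 1.603 (SE 0.30, adjusted p = 0.00109) was called whichever library was left out. *Hsph1*, a nucleotide exchange factor for those chaperones, was at 515, 446, 1619.6, 786 and 450.2 CPM at MCAO 12 h and 275, 267, 355 and 367 CPM in the control, a log2 fold change of 1.27 (SE 0.27, adjusted p = 0.00382). The cytosolic chaperone gene *Hsp90aa1* was at 1347, 845, 1531, 1249 and 1229 CPM against 672, 623, 741 and 803 CPM, a log2 fold change of 0.81 (SE 0.16, adjusted p = 0.00203). For both, every MCAO library was above every control library, library C was the highest, and sham values lay between 300.3 and 451 CPM for *Hsph1* and 599.7 and 829 CPM for *Hsp90aa1*. The test was no longer passed by *Hsph1* with MCAO C or control A, B or C left out (adjusted p up to 0.0483) and *Hsp90aa1* with MCAO C or control A or B left out (adjusted p up to 0.0187). *Hsph1* and *Hsp90aa1* were not called in the 2-group fit (adjusted p up to 0.0573), nor with spike-in scaling (adjusted p up to 0.0726).

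The promoters of *Hspa1a* and *Hsph1* are shown because the heat shock element, searched as TTCNNGAA or GAANNTTC on both strands, lay in 10 of the 20 heat shock list promoters that could be matched, beside 15.1% of all 27025 RefSeq promoters. Each window ran from 250 bases before the start to 50 after it (RefSeq, GRCm38.p6), and the printed stretch is the 250 bases before the start, 5′ to 3′ on the gene's strand, with matches in capitals. Such a match is a description of letters and not evidence of binding. For each gene only the most upstream start was used, here and for the motifs below, and other starts were not searched. *Hspa1a* (chr17:34972157-34972406, minus strand) held 1 match and *Hsph1* (chr5:149636337-149636586, minus strand) held 1 in the stretch and 2 after the start.
Hspa1a: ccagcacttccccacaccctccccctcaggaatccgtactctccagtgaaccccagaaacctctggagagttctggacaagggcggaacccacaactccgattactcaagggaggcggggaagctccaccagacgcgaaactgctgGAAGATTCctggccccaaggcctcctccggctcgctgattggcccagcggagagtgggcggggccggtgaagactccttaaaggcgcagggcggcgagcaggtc
Hsph1: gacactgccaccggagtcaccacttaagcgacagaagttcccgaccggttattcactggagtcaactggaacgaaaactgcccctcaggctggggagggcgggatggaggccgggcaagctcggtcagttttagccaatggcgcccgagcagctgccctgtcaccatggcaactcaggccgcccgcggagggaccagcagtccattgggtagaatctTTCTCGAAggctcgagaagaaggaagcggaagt

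Chaperones of the endoplasmic reticulum and the integrated stress response gave no call among 20 genes tested, with a median log2 fold change of 0.20 that became -0.08 with spike-in scaling. *Hspa5*, the main lumenal chaperone, was at 699 CPM on average at MCAO 12 h and 429.8 CPM in the control (log2 fold change 0.70, adjusted p = 0.0705). Among 14 Gadd45 and growth arrest genes, 1 was called: *Cdkn1a*, which encodes the cell cycle inhibitor p21. *Cdkn1a* was at 76.4, 183, 293, 149 and 157 CPM at MCAO 12 h, 66.5, 94.4, 43.99 and 42.1 CPM in the sham and 36.3, 72.5, 69.4 and 55.9 CPM in the control, so that every MCAO library was above every control library, with A only just so. Its log2 fold change was 1.55 (SE 0.33, adjusted p = 0.00387). No call was made for *Cdkn1a* with MCAO C or any 1 control left out (adjusted p up to 0.0363). *Cdkn1a* was not called in the 2-group fit (adjusted p = 0.017), nor with spike-in scaling (adjusted p = 0.0147). *Gadd45g*, another stress-inducible growth arrest gene, was at 68.6 CPM against 20.98 CPM and was not called (adjusted p = 0.0179). None of 21 apoptosis and necroptosis genes was called, although 18 had a positive log2 fold change and their median was 0.51 (0.37 with genes that had 3 counts or fewer in each control library set at their lower bound).

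Metallothioneins are small cysteine-rich proteins that bind zinc and copper and scavenge radicals, and they are strongly induced by metals, glucocorticoids and oxidants. Of 8 genes for metallothioneins and zinc handling, 2 were called higher and none lower (median log2 fold change 0.40). *Mt1* (chromosome 8, 94179082 to 94180327) was at 1156, 1578, 2014, 1319 and 1478 CPM at MCAO 12 h, 829, 684, 654 and 754 CPM in the sham and 514, 489, 558 and 539 CPM in the control. The MCAO libraries lay above the sham and the sham above the control, with no overlap between any of the groups. *Mt1* rose by a log2 fold change of 1.52 over the control (SE 0.19, adjusted p = 1.3e-06) and of 1.05 over the sham (adjusted p = 0.000994), and its sham level did not pass against the control (log2 fold change 0.47, adjusted p = 0.908). *Mt2* (94172664 to 94173568, next to *Mt1*) was at 379, 1109, 1538, 589 and 1077 CPM at MCAO 12 h, 197, 291, 522 and 296 CPM in the sham and 211, 290.1, 259.6 and 268 CPM in the control. Every MCAO library was above the controls, and MCAO A lay below sham C. This was a log2 fold change of 1.87 (SE 0.28, adjusted p = 4.93e-05) over the control and 1.52 over the sham (adjusted p = 0.00119), and both genes were called against the control under each alternative.

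The metal response element, through which the zinc sensor MTF-1 acts, was searched as TGCACNC or TGCGCNC on both strands. It lay in 5 of 7 matched promoters of the list (71.4%), beside 25.6% of all promoters. The motif also lay in 36.5% of promoters of genes called higher and 40.3% of those called lower. In the other lists searched its share ran from 12.5% (acute phase proteins) to 54.5% (immediate early genes). Both metallothionein promoters are shown with matches in capitals: *Mt1* (chr8:94178839-94179088, plus strand) held 1 in the 250 bases before the start and 2 after it, and *Mt2* (chr8:94172368-94172617, plus strand) held 3 and 1.
Mt1: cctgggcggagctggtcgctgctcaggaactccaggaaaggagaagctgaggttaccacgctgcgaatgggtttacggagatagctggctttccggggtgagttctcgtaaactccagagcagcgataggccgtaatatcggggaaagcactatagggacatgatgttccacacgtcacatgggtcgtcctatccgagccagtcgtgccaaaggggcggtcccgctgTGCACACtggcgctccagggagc
Mt2: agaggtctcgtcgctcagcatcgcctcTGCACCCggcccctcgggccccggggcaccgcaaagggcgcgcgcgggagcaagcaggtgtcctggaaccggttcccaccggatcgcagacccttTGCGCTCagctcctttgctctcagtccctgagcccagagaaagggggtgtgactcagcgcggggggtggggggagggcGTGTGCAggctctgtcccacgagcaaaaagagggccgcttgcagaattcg

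NRF2 is the transcription factor of the antioxidant response, and heme oxygenase is its best known target. Among 16 NRF2 antioxidant and heme targets, 2 were called higher and none lower, while the median log2 fold change was -0.01. *Hmox1*, which encodes heme oxygenase 1, was at 4.45, 16.99, 79.3, 21.8 and 17.9 CPM at MCAO 12 h and at 2.23, 0.562, 0.564 and 1.14 CPM in the control. Every MCAO library was above the controls and library C stood apart. Its log2 fold change was 4.55 (SE 0.98, adjusted p = 0.00408), with 266 counts summed over the MCAO and 8 over the control libraries, and without library C it was 3.66. *Srxn1*, the sulfiredoxin that restores peroxiredoxins, was at 168, 189, 333, 142 and 146 CPM against 103, 70.8, 76.8 and 91.9 CPM in the control, with no overlap and again with library C highest. This was a log2 fold change of 1.19 (SE 0.22, adjusted p = 0.000935). The call was not kept for *Hmox1* with MCAO C or any 1 control left out (adjusted p up to 0.0309) and *Srxn1* with MCAO C or control B left out (adjusted p up to 0.0112). *Srxn1* was not called in the 2-group fit (adjusted p = 0.0178), nor with spike-in scaling (adjusted p = 0.0195).

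**Figure D2:**
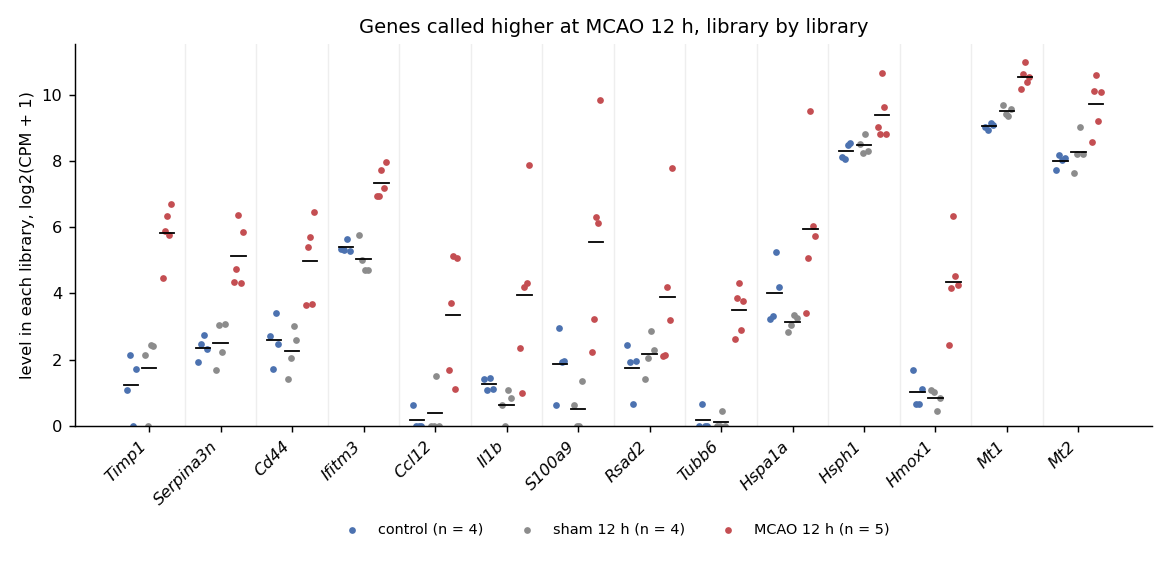
The y axis gives log2(CPM + 1) in each library for 14 genes called higher at MCAO 12 h (x axis), with control (blue, n = 4), sham 12 h (gray, n = 4) and MCAO 12 h (red, n = 5), and a line at each group mean. Controls and sham overlap for most of the genes, the MCAO libraries spread widely for *S100a9*, *Il1b*, *Rsad2* and *Hspa1a*, and those of *Mt1* and *Ifitm3* sit close together above both other groups.

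Secreted protease inhibitors and pentraxins of the acute phase response were among the largest rises. *Timp1*, an inhibitor of matrix metalloproteases (X chromosome, 20870166 to 20874735), was at 21.1, 57.8, 78.8, 53.5 and 103 CPM at MCAO 12 h, 3.35, 0, 4.44 and 4.29 CPM in the sham and 1.12, 3.37, 0 and 2.28 CPM in the control. The lowest MCAO library was above each sham and control library. On the log2 scale the fold change was 5.16 over the control (SE 0.79, adjusted p = 4.93e-05) and 4.28 over the sham (adjusted p = 0.000259), and *Timp1* was called under each alternative.

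*Serpina3n*, a serine protease inhibitor of reactive astrocytes, was at 19.3, 25.7, 81.9, 18.8 and 57.2 CPM at MCAO 12 h, 2.23, 7.30, 3.70 and 7.40 CPM in the sham and 2.79, 4.50, 5.64 and 3.996 CPM in the control. The MCAO libraries were above both other groups, which overlapped, with a log2 fold change of 3.23 (SE 0.62, adjusted p = 0.00109). *Ptx3*, a secreted pentraxin, was at 0 in the 4 controls and at 0.371, 11.2, 19.3, 2.94 and 17.3 CPM at MCAO 12 h, which put the MCAO mean at least 6.04-fold higher than the floor of 3 counts per control library (adjusted p = 0.00271). Among 10 acute phase genes tested of 13 in the list, these 3 were called and none was lower. *Lcn2*, the iron-carrier binding protein lipocalin 2, was at 17.9 CPM on average against 2.84 CPM and was not called (adjusted p = 0.0774). The median log2 fold change of the acute phase list was 4.07, or 2.06 with genes at or under 3 counts in each control library set at their bound. The threshold was missed by *Serpina3n* with control A left out (adjusted p = 0.0102) and *Ptx3* with any 1 control left out (adjusted p up to 0.0145). *Ptx3* was not called in the 2-group fit (adjusted p = 0.0296).

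Reactive astrocyte genes gave 5 calls, all higher, among 25 tested, with a median log2 fold change of 1.84 (1.52 with bounds), and 3 of the 5 were *Timp1*, *Serpina3n* and *Ptx3* above. *Gfap*, the intermediate filament of astrocytes (chromosome 11, 102887336 to 102900912), was at 192, 438, 421, 468 and 262 CPM at MCAO 12 h, 101, 59.96, 22.9 and 42.9 CPM in the sham and 40.7, 39.9, 46.8 and 71.9 CPM in the control. Library A was the lowest of the MCAO libraries and still above each sham and control library. The log2 fold change of *Gfap* was 2.84 (SE 0.39, adjusted p = 1.35e-05), or a mean of 356 ± 122 CPM (SD, n = 5) against 49.9 ± 15.04 CPM (SD, n = 4). *Cd44*, the hyaluronan receptor, was at 11.5, 41.3, 51.1, 11.8 and 85.8 CPM at MCAO 12 h and 5.58, 2.25, 9.60 and 4.57 CPM in the control, with no overlap. Its log2 fold change was 2.85 (SE 0.58, adjusted p = 0.00252). The call was lost for *Cd44* with MCAO E or control A, B or D left out (adjusted p up to 0.0237). *Cd44* was not called in the 2-group fit (adjusted p = 0.0194). The 12 markers of astrocytes in general gave no call and a median of -0.12. *Slc1a2*, their main glutamate transporter and the most abundant of these markers by CPM, was at 2317, 2302, 2274, 2738 and 2220.2 CPM at MCAO 12 h and 2919, 2714, 2729 and 2991 CPM in the control, with D within the control range.

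Matrix proteases, inhibitors and matricellular genes gave 3 rises among 26 tested (*Timp1*, *Cd44* and *Adamts1*) and no fall, with a median log2 fold change of 1.26 (0.84 with bounds). *Adamts1*, which cleaves proteoglycans, had a log2 fold change of 1.98 (SE 0.39, adjusted p = 0.00172). *A2m*, a broad protease trap, held 110 counts over the MCAO and 4 over the control libraries, a ratio of 19.4 (95% exact interval of counting error 7.37 to 72.5, adjusted p = 0.00271) that became 29.2 without control D. *Tubb6*, a beta tubulin of the neuronal injury and axon growth list, was at 5.19, 13.6, 18.8, 6.47 and 12.5 CPM at MCAO 12 h and had 1 count in the 4 controls together, in control B. That is a ratio of 77.6 (interval 13.6 to 3094, adjusted p = 0.00116), and it was the 1 call among the 17 genes of that list. *Tuba1c*, an alpha tubulin, had a log2 fold change of 3.61 (SE 0.80, adjusted p = 0.00578). The test was no longer passed by *Adamts1* with control B left out (adjusted p = 0.0202), *A2m* with control A, B or C left out (adjusted p up to 0.0204) and *Tuba1c* with MCAO C or E or any 1 control left out (adjusted p up to 0.0407).

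Chemokines draw leukocytes along a gradient, CC members mainly monocytes and T cells and CXC members mainly neutrophils. Of 13 CC chemokines tested, 3 were called higher and none lower. *Ccl12*, a ligand of CCR2, was at 2.22, 12.1, 33.9, 1.18 and 32.8 CPM at MCAO 12 h, with 1 count in the 4 controls together and 0 to 1.85 CPM in the sham. The summed counts, 153 against 1, gave a ratio of 108 (interval 19.1 to 4292), and the gene was called against the control (adjusted p = 0.000712) and against the sham (adjusted p = 0.00243). Libraries B, C and E were high, whereas A and D were at 2.22 CPM or less, and the single control count was in control A.

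*Ccl4*, a chemokine of activated macrophages, was at 0.371, 2.91, 28.7, 12.9 and 47.05 CPM at MCAO 12 h, with 163 counts against 1 in the controls, a ratio of 115 (interval 20.4 to 4571, adjusted p = 0.00903). Here libraries C, D and E were high and A was within the control range, the single control count was in control A, and without library E the ratio was 71.2. *Ccl6*, a chemokine of myeloid cells, was at 6.67, 16.99, 33.4, 31.8 and 57.2 CPM at MCAO 12 h and 0.558, 3.37, 5.08 and 1.71 CPM in the control, with no overlap. This was a log2 fold change of 3.40 (SE 0.68, adjusted p = 0.00209). *Ccl2* and *Ccl3*, both monocyte attractants, were at up to 20.9 and 58.96 CPM at MCAO 12 h and were not called, with MCAO A at 0 for both. The median log2 fold change of the CC list was 3.40, and 1.47 with bounds. No call was made for *Ccl4* with MCAO C, D or E or any 1 control left out (adjusted p up to 0.0487) or *Ccl6* with MCAO E or control A, B or D left out (adjusted p up to 0.0191). *Ccl12* and *Ccl4* were not called in the 2-group fit (adjusted p up to 0.0243), nor *Ccl4* with the filterByExpr filter (adjusted p = 0.0102).

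Among 12 CXC and CX3C chemokines, none was called higher and 1 was called lower. *Cxcl2*, a neutrophil attractant, was at 0, 2.91, 29.2, 12.9 and 366 CPM at MCAO 12 h and 0, 0, 5.08 and 3.43 CPM in the control, with A at 0, E far above the rest and no call (adjusted p = 0.0166). *Cxcl10*, an interferon-induced ligand of CXCR3, was at 0, 0.485, 6.26, 0 and 49.4 CPM at MCAO 12 h and 0, 0, 0.564 and 0 CPM in the control, and was not called (adjusted p = 0.0272). *Cxcl12*, which retains progenitor cells and guides vessels, was at 29.3 CPM against 62.1 CPM (log2 fold change -1.08, adjusted p = 0.0172). The gene called lower was *Cx3cl1*, the neuronal fractalkine read by microglia, at 340.4, 485, 279.6, 179 and 508 CPM at MCAO 12 h, 252, 568, 726 and 694 CPM in the sham and 649, 824, 729.8 and 716 CPM in the control. MCAO libraries lay below the controls, sham A lay within their range, and the log2 fold change was -1.03 (SE 0.23, adjusted p = 0.00829). The call was not kept for *Cx3cl1* with MCAO A, C or D or any 1 control left out (adjusted p up to 0.0447). *Cx3cl1* was not called in the 2-group fit (adjusted p = 0.036).

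The IL-1, TNF and NF-kB response list gave 3 rises and no fall among 22 genes, with a median log2 fold change of 1.20 (0.88 with bounds). *Il1b*, the cytokine interleukin 1 beta (chromosome 2, 129364570 to 129371139), was at 4.08, 0.971, 17.2, 18.8 and 233 CPM at MCAO 12 h, 0.559, 0, 1.11 and 0.779 CPM in the sham and 1.67, 1.12, 1.69 and 1.14 CPM in the control. Library E was far above the others, and library B lay just under the control range. The summed counts were 469 against 10, with 3 or fewer in each control library, a ratio of 33.1 (interval 17.8 to 69.5, adjusted p = 0.00667), and without library E it was 6.61. The threshold was missed by *Il1b* with MCAO E or any 1 control left out (adjusted p up to 0.17). *Il1b* was not called in the 2-group fit (adjusted p = 0.0643). *Il1rn*, the antagonist of the same receptor, was at 0, 2.43, 20.9, 9.41 and 123 CPM at MCAO 12 h and at 0 in the controls, and was not called (adjusted p = 0.0286).

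*Tnfrsf1a*, the main receptor for TNF, had a log2 fold change of 1.94 (SE 0.40, adjusted p = 0.00304). *Bcl3*, an atypical IκB protein and target of NF-kB, had 79 counts against 3 in the controls (ratio 18.6, interval 6.13 to 92.03, adjusted p = 0.00837), a ratio that became 41.8 without control B. *Hcar2*, the niacin and beta-hydroxybutyrate receptor of myeloid cells, was at 0.742, 2.43, 6.26, 9.41 and 34.5 CPM at MCAO 12 h and at 0 in each sham and control library, which put the MCAO mean at least 6.31-fold higher than the floor (adjusted p = 0.00882), or at least 2.78-fold without library E. Library A was under the floor and E the highest. The NF-kB site, searched as GGANTTTCC on both strands, lay in 4 of 18 matched promoters of the list (22.2%), beside 1.23% of all promoters, and in none of the promoters of *Il1b*, *Tnfrsf1a* and *Bcl3*, the called members. The call was lost for *Tnfrsf1a* with MCAO E or control B, C or D left out (adjusted p up to 0.0205), *Bcl3* with MCAO C, D or E or any 1 control left out (adjusted p up to 0.0499) and *Hcar2* with MCAO C, D or E or any 1 control left out (adjusted p up to 0.04). *Bcl3* and *Hcar2* were not called in the 2-group fit (adjusted p up to 0.0475), nor *Hcar2* with the filterByExpr filter (adjusted p = 0.0109).

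Cytokines of the IL-6 family signal through STAT3, which induces its own inhibitor SOCS3 and many acute phase genes. *Stat3* was the 1 gene called among 19 of that list. It was at 108, 196, 282, 161 and 225 CPM at MCAO 12 h, 69.3, 83.95, 97.2 and 70.1 CPM in the sham and 98.2, 92.2, 118 and 78.2 CPM in the control, with MCAO A within the control range. The fitted log2 fold change was 1.003 (SE 0.22, adjusted p = 0.00731). The test was no longer passed by *Stat3* with MCAO B, C or E or any 1 control left out (adjusted p up to 0.0403). *Stat3* was not called in the 2-group fit (adjusted p = 0.0361), nor with spike-in scaling (adjusted p = 0.0593). *Socs3* was at 0.742, 25.7, 79.3, 3.53 and 57.8 CPM at MCAO 12 h and 4.46, 5.06, 5.08 and 5.14 CPM in the control, low in A and D and high in B, C and E, and was not called (adjusted p = 0.0318).

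Interferon-stimulated genes encode proteins that block viral entry and replication, and they are induced by interferon signalling. Of 20 tested, 4 were called higher and none lower, beside 0.386% and 0.471% of all genes tested. A positive log2 fold change was seen for 19, and the median was 2.05 (1.35 with bounds). For 1 of the 20, every MCAO library was above every control library, beside 2.88% of all genes tested. *Ifitm3*, a membrane protein that restricts viral entry, was at 121, 120.4, 210.2, 144 and 247 CPM at MCAO 12 h, 53.1, 31.3, 25.1 and 24.9 CPM in the sham and 39.6, 38.2, 49.1 and 37.7 CPM in the control. The MCAO libraries were above both other groups, with a log2 fold change of 2.03 over the control (SE 0.31, adjusted p = 4.93e-05) and 2.34 over the sham (adjusted p = 2.45e-05). *Rsad2*, which encodes viperin, was at 3.34, 3.40, 17.2, 8.24 and 219 CPM at MCAO 12 h and 4.46, 2.81, 0.564 and 2.85 CPM in the control. A and B lay within the control range and E far above the rest. With E the log2 fold change was 4.18 (SE 0.82, adjusted p = 0.00172) and without it 1.54 (adjusted p = 0.187). The calls of *Irf7*, the factor that amplifies the interferon response, and of *Oasl2*, an oligoadenylate synthetase-like protein, were also lost without library E (adjusted p = 0.0541 and 0.0899), and the log2 fold change of *Oasl2* went from 2.31 to 1.41. No call was made for *Rsad2* with MCAO E or control B or C left out (adjusted p up to 0.187), *Irf7* with MCAO E or any 1 control left out (adjusted p up to 0.0541) or *Oasl2* with MCAO E or control A, B or D left out (adjusted p up to 0.0899). *Rsad2*, *Irf7* and *Oasl2* were not called in the 2-group fit (adjusted p up to 0.109), nor *Oasl2* with spike-in scaling (adjusted p = 0.0102). *Ifitm1*, a related membrane protein named by size, was at 12.98, 12.1, 13.04, 9.41 and 31.6 CPM at MCAO 12 h and 2.23, 0.562, 0 and 2.85 CPM in the control, where every MCAO library was above the controls and E the highest (log2 fold change 3.42, SE 0.73, adjusted p = 0.00389). The call was not kept for *Ifitm1* with MCAO E or control A, B or C left out (adjusted p up to 0.0317).

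Some neutrophil and red blood cell transcripts were also higher. Of 14 neutrophil markers 13 were tested and 2 were called higher, and their summed level was 18.2, 54.8, 211, 191 and 1797 CPM in MCAO libraries A to E, 10.1, 6.78, 4.07 and 7.01 CPM in the sham and 7.25, 19.7, 16.4 and 17.1 CPM in the control. Library E had the highest sum, C and D were in between, and A was within the control range. *S100a8* (chromosome 3, 90668978 to 90670035), a subunit of the calprotectin of neutrophils, was at 7.05, 16.02, 85.02, 106 and 759 CPM at MCAO 12 h, 0.559, 1.56, 0.739 and 1.17 CPM in the sham and 1.12, 2.81, 6.21 and 1.71 CPM in the control. Its mean was 195 CPM against 2.96 CPM, 65.7-fold higher (SE of the log2 fold change 1.12, adjusted p = 0.000851), and without library E the log2 fold change was 4.13 (adjusted p = 0.0148) and without control C 6.64. Its partner *S100a9* (90692632 to 90695721), the most abundant marker of the list by CPM, was at 3.71, 8.25, 77.2, 68.2 and 903 CPM at MCAO 12 h and 0.558, 6.75, 2.82 and 2.85 CPM in the control (log2 fold change 5.996, SE 1.13, adjusted p = 0.00104), and its log2 fold change was 3.55 without library E and 6.63 without control B. The threshold was missed by *S100a8* with MCAO E left out (adjusted p = 0.0148) and *S100a9* with MCAO E or control A left out (adjusted p up to 0.0346). *S100a8* and *S100a9* were not called in the 2-group fit (adjusted p up to 0.0416). In bulk tissue, more cells of a type and more RNA per cell cannot be told apart, and the part of neutrophil RNA in the cytokine values above was not tested.

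Erythroid markers gave 3 rises among 8 tested of 9. Their summed level was 280.3, 348, 1571, 1402 and 1026 CPM in MCAO A to E, 133, 188, 386 and 295 CPM in the sham and 182, 304, 426 and 214 CPM in the control, so that MCAO A and B were within the control range and C, D and E were above it. *Hba-a1*, an alpha globin gene, was at 29.3, 71.8, 447, 376 and 300.2 CPM at MCAO 12 h, 2.79, 13.04, 36.6 and 42.1 CPM in the sham and 11.7, 17.4, 45.2 and 11.99 CPM in the control (log2 fold change 3.50, SE 0.73, adjusted p = 0.0037). Its near-identical copy *Hba-a2* and the beta globin gene *Hbb-bs* had log2 fold changes of 3.55 and 3.37 (adjusted p = 0.00731 and 0.00951). Without control C the log2 fold change of *Hba-a1* was 4.15, and without MCAO D that of *Hba-a2* was 2.80. The call was lost for *Hba-a1* with MCAO C or control A, B or D left out (adjusted p up to 0.0267), *Hba-a2* with MCAO C, D or E or any 1 control left out (adjusted p up to 0.045) and *Hbb-bs* with MCAO C, D or E or any 1 control left out (adjusted p up to 0.0541). *Hba-a1*, *Hba-a2* and *Hbb-bs* were not called in the 2-group fit (adjusted p up to 0.0455), nor *Hbb-bs* with spike-in scaling (adjusted p = 0.0138), nor *Hbb-bs* with the filterByExpr filter (adjusted p = 0.0103). Reads that fit both copies equally were listed as not unique, so that the split between copies is uncertain. The mice were perfused before dissection, and the part of blood left in the tissue was not tested.

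Markers of monocytes and macrophages gave no call among 12, although all 12 had a positive log2 fold change. Their summed level was 78.99, 78.1, 188, 94.7 and 367 CPM at MCAO 12 h and 59.7, 75.9, 79.02 and 60.5 CPM in the control, with E the highest and A and B near the highest control. Of 16 lymphocyte markers, 7 were tested and none called, and *Cd3g*, *Cd8a*, *Cd8b1*, *Cd79a*, *Ms4a1* and *Klrb1c* were at 0 in all 13 libraries. Their summed level was 8.90, 13.1, 14.1, 17.1 and 16.7 CPM at MCAO 12 h and 53.6, 44.4, 29.9 and 33.1 CPM in the control, without overlap, and *Ighm* was the most abundant.

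**Figure D3:**
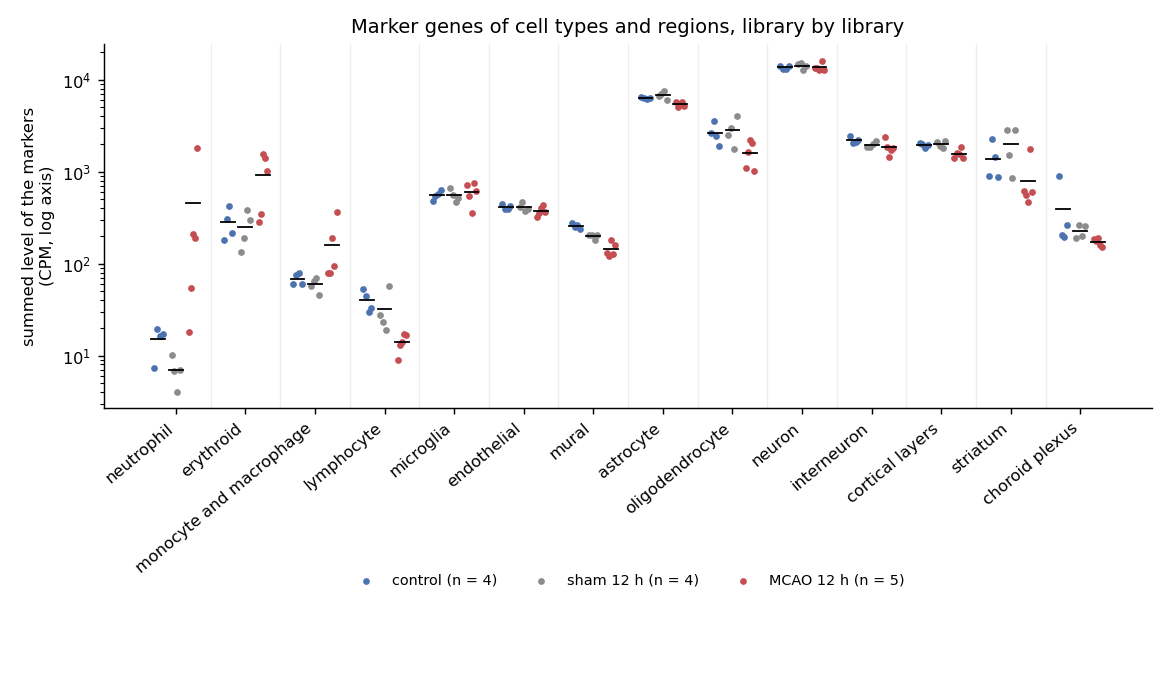
The y axis gives the summed CPM of each marker list (x axis) in each library on a log axis, with control (blue, n = 4), sham 12 h (gray, n = 4) and MCAO 12 h (red, n = 5), and a line at each group mean. The neutrophil sums of the MCAO libraries run from 18.2 to 1797 CPM, the mural sums lie below those of the controls without overlap, and the neuron sums of the 3 groups overlap.

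Microglia are the resident macrophages of the brain, and in injury they lose their surveying receptor P2RY12. Of 16 microglial markers, 1 was called and it was lower: *P2ry12* was at 10.4, 5.34, 1.56, 0.588 and 4.17 CPM at MCAO 12 h, 8.38, 17.7, 27.4 and 10.9 CPM in the sham and 15.6, 18.6, 10.7 and 17.7 CPM in the control. MCAO libraries lay below the controls, with A just under the lowest control. The log2 fold change was -1.72 over the control (SE 0.40, adjusted p = 0.00951) and -1.78 over the sham (adjusted p = 0.00927). Without MCAO A it was -2.36 over the control. Against the sham, *P2ry12* was not called with only MCAO and sham in the fit, nor without sham C. The test was no longer passed by *P2ry12* with MCAO B, C, D or E or any 1 control left out (adjusted p up to 0.0474). *P2ry12* was not called in the 2-group fit (adjusted p = 0.0844), nor with DESeq2 size factors (adjusted p = 0.0105). Of the 16 microglial markers, 5 had a positive log2 fold change, and the median was -0.23. Their summed level was 714, 539, 356, 752 and 609 CPM at MCAO 12 h and 483, 549, 579 and 639 CPM in the control. *Cx3cr1*, the most abundant, was at 170 CPM on average at MCAO 12 h and 119 CPM in the control, and was not called. Among 20 reactive microglia genes the 1 call was *Ccl6*, above, and the median log2 fold change was 0.45 (0.19 with bounds).

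Mural cells, the pericytes and smooth muscle cells that wrap vessels, had 2 markers called lower of 12. The log2 fold change was positive for 4 of the 12, and the median was -0.46. *Vtn*, which encodes vitronectin and in brain marks pericytes, was at 34.1, 20.4, 31.8, 39.4 and 34.5 CPM at MCAO 12 h, 58.6, 44.3, 64.7 and 37.8 CPM in the sham and 85.4, 72.5, 89.2 and 49.7 CPM in the control. MCAO libraries were below the controls, and all but D were also below the lowest sham library. On the log2 scale the fold change was -1.21 (SE 0.18, adjusted p = 4.93e-05). *Acta2*, smooth muscle actin, was at 4.08, 10.2, 8.87, 10.6 and 16.1 CPM at MCAO 12 h, 27.9, 12.5, 18.1 and 20.3 CPM in the sham and 50.8, 34.9, 45.2 and 37.7 CPM in the control (log2 fold change -2.11, SE 0.42, adjusted p = 0.00209), and the MCAO and control libraries did not overlap. Against the sham the values of both were not called (adjusted p = 0.0457 and 0.255). No call was made for *Acta2* with MCAO A or control A left out (adjusted p up to 0.0121). *Vtn* was not called in the 2-group fit (adjusted p = 0.0122). The summed mural markers were at 130.2, 122, 182, 128 and 161 CPM in MCAO A to E, 205, 206, 182 and 204 CPM in the sham and 275, 249.6, 261 and 236 CPM in the control.

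Endothelial markers gave 2 falls among 12, with a positive log2 fold change for 7 and a median of 0.06, beside 0.04 over all genes tested. *Slco1a4*, an organic anion transporter of the blood-brain barrier, was at 37.8, 31.1, 10.95, 34.7 and 27.99 CPM at MCAO 12 h, 74.3, 64.7, 62.1 and 49.5 CPM in the sham and 85.9, 68.02, 62.1 and 51.95 CPM in the control. MCAO libraries lay below both other groups, with a log2 fold change of -1.22 against the control (SE 0.22, adjusted p = 0.000712) and -1.12 against the sham (adjusted p = 0.00349). *Itm2a*, a membrane protein of brain endothelium, was at 17.4, 10.7, 8.87, 14.7 and 18.5 CPM at MCAO 12 h, 31.8, 28.2, 31.1 and 21.8 CPM in the sham and 35.7, 31.5, 29.9 and 31.4 CPM in the control, with the MCAO libraries again below both. This was a log2 fold change of -1.19 against the control (SE 0.22, adjusted p = 0.000924) and -1.0001 against the sham (adjusted p = 0.00945). Against the sham, neither *Slco1a4* nor *Itm2a* was called with only MCAO and sham in the fit, nor without sham C. *Slco1a4* was the 1 call among 15 genes of barrier junctions and transporters, whose median was 0.10 and became -0.16 with spike-in scaling. The summed endothelial markers were at 323, 355, 401, 432 and 366 CPM at MCAO 12 h and 446, 391, 394 and 424 CPM in the control. *Vcam1*, an adhesion molecule of activated endothelium, was at 27.4 CPM against 56.6 CPM (log2 fold change -1.04, adjusted p = 0.014), and *Ctla2a*, a cysteine protease inhibitor in the angiogenesis list, rose by a log2 fold change of 1.995 (SE 0.44, adjusted p = 0.00623). The call was not kept for *Slco1a4* with control A left out (adjusted p = 0.0102) and *Ctla2a* with MCAO C or control A, B or D left out (adjusted p up to 0.045). *Slco1a4* and *Itm2a* were not called in the 2-group fit (adjusted p up to 0.0341).

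Among falls outside the cell type lists, *Gldc*, the glycine decarboxylase of astrocytes (chromosome 19, 30098447 to 30175429), had the largest by log2 fold change of the genes called lower. It was at 1.85, 1.46, 2.09, 2.35 and 2.98 CPM at MCAO 12 h, 0, 5.21, 19.2 and 3.90 CPM in the sham and 13.4, 21.9, 27.7 and 10.8 CPM in the control. MCAO libraries were all below the controls, while the sham ran from 0 into the control range. The fitted log2 fold change was -3.09 (SE 0.54, adjusted p = 0.000336), called under each alternative, and against the sham the gene was not called (adjusted p = 0.096).

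*Tmem63b*, an osmosensitive channel (chromosome 17, 45660171 to 45686905), was at 35.6, 54.4, 35.99, 28.2 and 63.7 CPM at MCAO 12 h, 37.98, 81.3, 76.9 and 116 CPM in the sham and 216, 236, 221 and 215 CPM in the control. The sham libraries were also all below the controls and overlapped with the MCAO libraries. The log2 fold change was -2.35 for MCAO (SE 0.29, adjusted p = 1.3e-06) and -1.502 for sham against the same controls (adjusted p = 0.0206), and the difference between MCAO and sham was not called (-0.85, adjusted p = 0.139). *Slc39a12*, a zinc importer of astrocytes, fell against the control (log2 fold change -1.82, SE 0.34, adjusted p = 0.000904) and against the sham (-1.76, adjusted p = 0.00211). Its call against the sham was lost with only MCAO and sham in the fit, and without sham C. Other falls named by size were *Nkain4*, a partner of the sodium pump (log2 fold change -1.92), *Nrarp*, a feedback inhibitor of Notch (-2.08), *Fbxl6*, an F-box protein (-1.93), and *H2afy2*, a macroH2A histone (-1.92). *Car14*, a membrane carbonic anhydrase, *Pltp*, a phospholipid transfer protein, and *Hdac9*, a histone deacetylase, had log2 fold changes of -1.79, -1.78 and -1.73. The threshold was missed by *Nrarp* with control B or C left out (adjusted p up to 0.0232), *H2afy2* with MCAO A, D or E or control A, B or C left out (adjusted p up to 0.0549) and *Car14* with MCAO C or E or control A, B or C left out (adjusted p up to 0.0224). *Slc39a12*, *H2afy2*, *Pltp* and *Hdac9* were not called in the 2-group fit (adjusted p up to 0.0205).

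The circadian clock runs on transcription factors that bind the E box CACGTG, and its output genes cycle strongly over the day. Of 19 clock genes tested, 2 were called lower and none higher (median log2 fold change -0.16). *Dbp*, a clock output factor (chromosome 7, 45705088 to 45710203), was at 19.7, 30.1, 39.1, 35.9 and 28.6 CPM at MCAO 12 h, 49.2, 43.8, 75.05 and 113 CPM in the sham and 109, 101, 103 and 85.6 CPM in the control. The MCAO libraries were below both other groups, and the sham ran from below the controls to just above them. On the log2 scale the fold change was -1.71 against the control (SE 0.25, adjusted p = 4.93e-05) and -1.21 against the sham (adjusted p = 0.00645). Against the sham, *Dbp* was not called with only MCAO and sham in the fit, nor without sham C. *Ciart*, a repressor in the clock loop, was at 1.85, 9.22, 10.95, 4.71 and 10.1 CPM at MCAO 12 h, 2.23, 9.39, 16.3 and 23.8 CPM in the sham and 32.4, 19.1, 36.1 and 27.97 CPM in the control. MCAO libraries lay below the controls and within the sham range or just under it, with a log2 fold change of -1.997 (SE 0.42, adjusted p = 0.00387) that was not called against the sham (-0.88, adjusted p = 0.338). The call was lost for *Ciart* with MCAO A or D or control A or C left out (adjusted p up to 0.0232). *Ciart* was not called in the 2-group fit (adjusted p = 0.0124). The hours at which tissue was taken are not given in the labels used here, so that time of day and treatment cannot be told apart.

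The promoter of *Ciart* is shown because it held 3 E boxes in the 250 bases before the start, the motif that lay in 5 of 17 matched clock promoters (29.4%) beside 7.24% of all promoters. The promoter of *Dbp*, the other clock gene called, held none. The *Ciart* promoter lies at chr3:95882229-95882478 on the minus strand. Matches to CACGTG, which reads alike on both strands, are in capitals.
Ciart: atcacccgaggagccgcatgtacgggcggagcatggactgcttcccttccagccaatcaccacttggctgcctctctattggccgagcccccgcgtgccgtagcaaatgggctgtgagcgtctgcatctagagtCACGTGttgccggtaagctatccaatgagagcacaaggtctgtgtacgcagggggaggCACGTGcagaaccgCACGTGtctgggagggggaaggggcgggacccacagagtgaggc

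**Figure D4:**
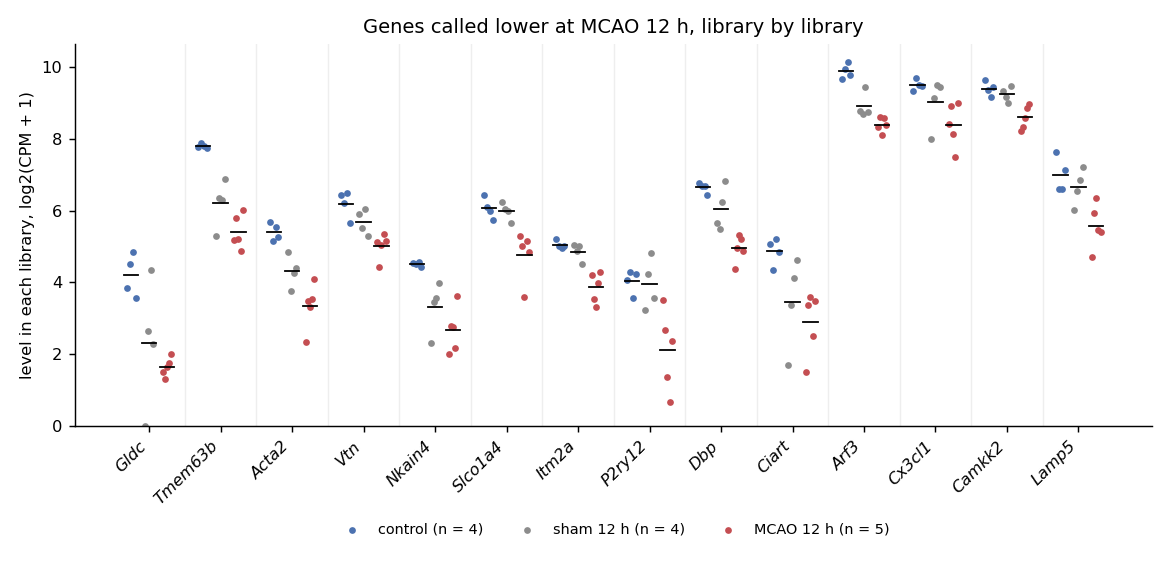
The y axis gives log2(CPM + 1) in each library for 14 genes called lower at MCAO 12 h (x axis), with control (blue, n = 4), sham 12 h (gray, n = 4) and MCAO 12 h (red, n = 5), and a line at each group mean. For *Tmem63b*, *Nkain4* and *Arf3* the sham lies between control and MCAO, whereas for *Itm2a*, *Slco1a4* and *P2ry12* it lies with the control.

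*Arf3*, *Btbd2*, *U2af1* and *Rnf126* were called lower at MCAO 12 h and in the sham. Both comparisons share the 4 controls, so the values are given side by side. With only sham and control in the fit, 1 gene was called in the sham, so at most 1 of these 4 sham calls was kept. Without sham A, sham B or control A, 3 genes in all were called in the sham. *Arf3*, a small GTPase of the Golgi (chromosome 15, 98736634 to 98763214), was at 320.02, 387, 274, 380.00 and 331 CPM at MCAO 12 h, 439, 409.8, 691 and 425 CPM in the sham and 816, 985, 1126 and 884 CPM in the control. Controls were above all operated libraries, and sham C lay nearest to them. The fitted log2 fold change was -1.49 for MCAO (SE 0.16, adjusted p = 9.47e-08) and -0.96 for sham (SE 0.17, adjusted p = 0.00573), and their difference was -0.54 (adjusted p = 0.0842). *Btbd2*, a BTB domain protein, had log2 fold changes of -1.497 for MCAO and -1.26 for sham (adjusted p = 4.93e-05 and 0.00934). *U2af1*, a splicing factor subunit, had -1.37 and -1.80 (adjusted p = 0.000452 and 0.000143), and *Rnf126*, a ubiquitin ligase, had -1.13 and -1.19 (adjusted p = 0.000353 and 0.00287). MCAO against sham was not called for any of the 4, with log2 fold changes of -0.23, 0.42 and 0.07 for the last 3.

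Calls in neuronal and synaptic lists are read against the 0.471% of all genes tested that were called lower. None was made among 21 glutamate receptors (median log2 fold change -0.26), 20 genes of GABA synthesis, transport and receptors (-0.36) and 28 voltage-gated ion channels (-0.16), and 3, 6 and 10 of their genes had a positive value. Postsynaptic scaffolds and calmodulin kinases gave 2 falls among 22 and a median of -0.29. They were *Itpka*, an inositol trisphosphate kinase of dendritic spines (log2 fold change -0.83, SE 0.17, adjusted p = 0.00204), and *Camkk2*, a calmodulin-dependent kinase kinase (-0.78, SE 0.18, adjusted p = 0.00995). *Camkk2* was at 299.6, 323, 382, 468 and 497 CPM at MCAO 12 h and 792, 651, 571 and 693 CPM in the control, without overlap but close. The test was no longer passed by *Itpka* with control A or B left out (adjusted p up to 0.0158) and *Camkk2* with MCAO A, B or C or any 1 control left out (adjusted p up to 0.0608). *Itpka* and *Camkk2* were not called in the 2-group fit (adjusted p up to 0.0287), nor *Camkk2* with DESeq2 size factors (adjusted p = 0.0124). The 14 general neuron markers had no call and a median of -0.05, and their summed level was 13333, 13296, 12625, 16182 and 12894 CPM at MCAO 12 h and 14226, 13109, 13190.00 and 14022 CPM in the control. *Camk2a* was the most abundant of them by CPM.

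The label of cortex was checked against 14 markers of cortical layers, all of which were detected and tested, with a summed level of 1422, 1599, 1552, 1867 and 1403 CPM at MCAO 12 h and 2044, 1989.5, 1813 and 1959.8 CPM in the control. Of these 1 was called: *Lamp5*, a lysosome-associated protein of upper layers and interneurons, fell by a log2 fold change of -1.39 (SE 0.30, adjusted p = 0.00424). No call was made for *Lamp5* with MCAO A, D or E or control A or D left out (adjusted p up to 0.0526). *Lamp5* was not called in the 2-group fit (adjusted p = 0.0218). Markers of the striatum summed to 610.4, 557, 467, 1769 and 596 CPM at MCAO 12 h, 2862, 1519, 845 and 2868 CPM in the sham and 889, 2291, 1451 and 866 CPM in the control, with *Ppp1r1b* the most abundant. The sums spanned a wide range within each group and none of the 11 tested was called (median -0.97). The choroid plexus gene *Ttr*, a thyroxine carrier, was at 490.4, 1.69, 0 and 0 CPM in the control and 37.1, 0.971, 0, 0 and 0.596 CPM at MCAO 12 h, where control A stood alone. Lists for thalamus, hippocampus, olfactory bulb, and hypothalamus and pituitary had no call, with medians of -0.04, -0.46, -0.10 and 1.39 (the last at 0.00 with bounds). Their part in the results was not tested.

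Among other cell types, 12 oligodendrocyte markers had no call and a median of -0.23. The list summed to 1101, 1631, 2193, 2046 and 1018 CPM at MCAO 12 h and 2645, 3543, 2449 and 1912 CPM in the control. Precursors of oligodendrocytes (10 markers, median -0.16), interneurons (10, -0.28), fibroblasts (12, 0.01), border macrophages (10, 0.31), ependymal cells (9, 1.91, or 0.00 with bounds) and choroid plexus (10, -0.68) had no call.

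Several other process lists had no call at 12 h. Among 27 immediate early genes, which answer to neuronal activity within minutes, 13 had a positive log2 fold change and the median was -0.01. *Fos*, the prototype of the class, was at 8.16, 7.77, 37.04, 28.2 and 26.2 CPM at MCAO 12 h and 12.8, 15.7, 40.1 and 25.7 CPM in the control, with overlapping ranges. *Egr1*, a zinc finger factor and the most abundant of the list by CPM, was at 164, 200.5, 254, 207 and 344 CPM and 248, 305, 364 and 389.9 CPM (log2 fold change -0.48, adjusted p = 0.354). Activity-induced secreted and plasticity genes (20 tested, median -0.08), ERK feedback genes (16, 0.05) and transforming growth factor beta ligands, receptors and targets (20, 0.04) had no call.

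Targets of hypoxia-inducible factor gave no call among 27 (median 0.08, which became -0.20 with spike-in scaling). The short motif ACGTG, searched on both strands and contained in the E box, lay in 14 of 23 matched promoters (60.9%) beside 19.6% of all promoters. *Vegfa*, the vascular growth factor, was at 27.4, 51.9, 71.5, 47.6 and 45.9 CPM at MCAO 12 h and 47.98, 40.5, 49.1 and 46.8 CPM in the control, with overlapping ranges. *Adm*, the vasodilator adrenomedullin, was at 10.4, 12.6, 15.6, 11.2 and 13.7 CPM and 3.35, 1.69, 2.26 and 6.85 CPM, where each MCAO library was above the controls but the test was not passed (log2 fold change 1.83, adjusted p = 0.0513). Glycolysis and lactate transport had no call among 20 (median 0.28, and with spike-in scaling 0.00 and 1 fall), and *Ldha*, a lactate dehydrogenase subunit, was at 185 CPM against 134 CPM (adjusted p = 0.158).

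Glucocorticoid-responsive genes gave 1 call among 18, *Cdkn1a* above (median 0.35, or 0.16 with bounds). Cholesterol synthesis enzymes and regulators gave 1 fall among 21: *Insig1*, which holds the sterol sensor in the endoplasmic reticulum. It fell at MCAO 12 h by a log2 fold change of -1.42 (SE 0.33, adjusted p = 0.00903), beside -1.48 in the sham against the same controls (adjusted p = 0.137). The call was not kept for *Insig1* with any 1 of the 9 libraries left out (adjusted p up to 0.0524). *Insig1* was not called in the 2-group fit (adjusted p = 0.0119). The list median was 0.13 and became -0.15 with spike-in scaling. Leukocyte adhesion molecules had 1 call among 14, *Cd44* above, with a median of 0.43 (0.24 with bounds).

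Abundant members, by CPM, of several lists with no call are given here, and none passed the test. *Grin2b*, an NMDA receptor subunit, was at 1077 ± 127 CPM (SD, n = 5) at MCAO 12 h and 1174 ± 28.9 CPM (SD, n = 4) in the control (log2 fold change -0.12, SE 0.12). *Gabbr1*, a GABA-B receptor subunit, had a log2 fold change of -0.02 (SE 0.14). *Aldoa*, the glycolytic aldolase, was at 1303 against 1076 CPM (log2 fold change 0.28, SE 0.12). *Hrk*, a BH3-only death gene of neurons, was at 379 against 211 CPM, a log2 fold change of 0.84 with an SE of 0.37. *Mbp*, myelin basic protein, was at 657 against 1246 CPM (-0.92, SE 0.31).

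Before adjustment, at an unadjusted p under 0.05 in edgeR's quasi-likelihood test, 8.75% of all genes tested were higher and 7.3% lower, and the counts of these lists are read against those shares. Higher values came from 10 of 20 glycolysis and lactate transport genes, 6 of 27 hypoxia-inducible factor targets, 6 of 27 immediate early genes, 5 of 20 endoplasmic reticulum and integrated stress genes, 5 of 21 apoptosis and necroptosis genes and 5 of 12 monocyte and macrophage markers. Lower values came from 5 of 21 glutamate receptors, 6 of 20 genes of GABA synthesis, transport and receptors, 6 of 28 voltage-gated ion channels, 5 of 12 oligodendrocyte markers and 2 of 14 neuron markers. In such short lists a few genes make the distance from the share over all genes, and nothing is read from these counts. DESeq2 made no call in the 27 lists without one, except for 1 lower GABA gene and 1 higher gene of the transforming growth factor beta list.

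Among markers of other cells that were not called, *Flt1* of endothelium had a log2 fold change of 0.09 (SE 0.15), *Rgs5* of pericytes of -0.51 (SE 0.22) and *Mgp* of fibroblasts of 0.66 (SE 0.52). *Mrc1*, a receptor of border macrophages, had 0.10 (SE 0.40), and *Fn1*, in the monocyte and macrophage list and also made by vessels, had 0.43 (SE 0.48). *Enpp2*, a choroid plexus and oligodendrocyte enzyme, was at 152 against 257 CPM (-0.76, SE 0.21). *Hdc*, the histamine-making enzyme, which stood in the ependymal list and is also made by myeloid cells, was at 5.56, 0.971, 4.69, 6.47 and 55.4 CPM at MCAO 12 h and 0, 3.37, 0.564 and 1.71 CPM in the control. MCAO E alone was far above the rest, as for *S100a8*, and the gene was not called (adjusted p = 0.0558). The cortical transcription factor *Bcl11b* had a log2 fold change of -0.45 (SE 0.34) and the interneuron peptide gene *Cck* of -0.23 (SE 0.24).

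**Figure D5:**
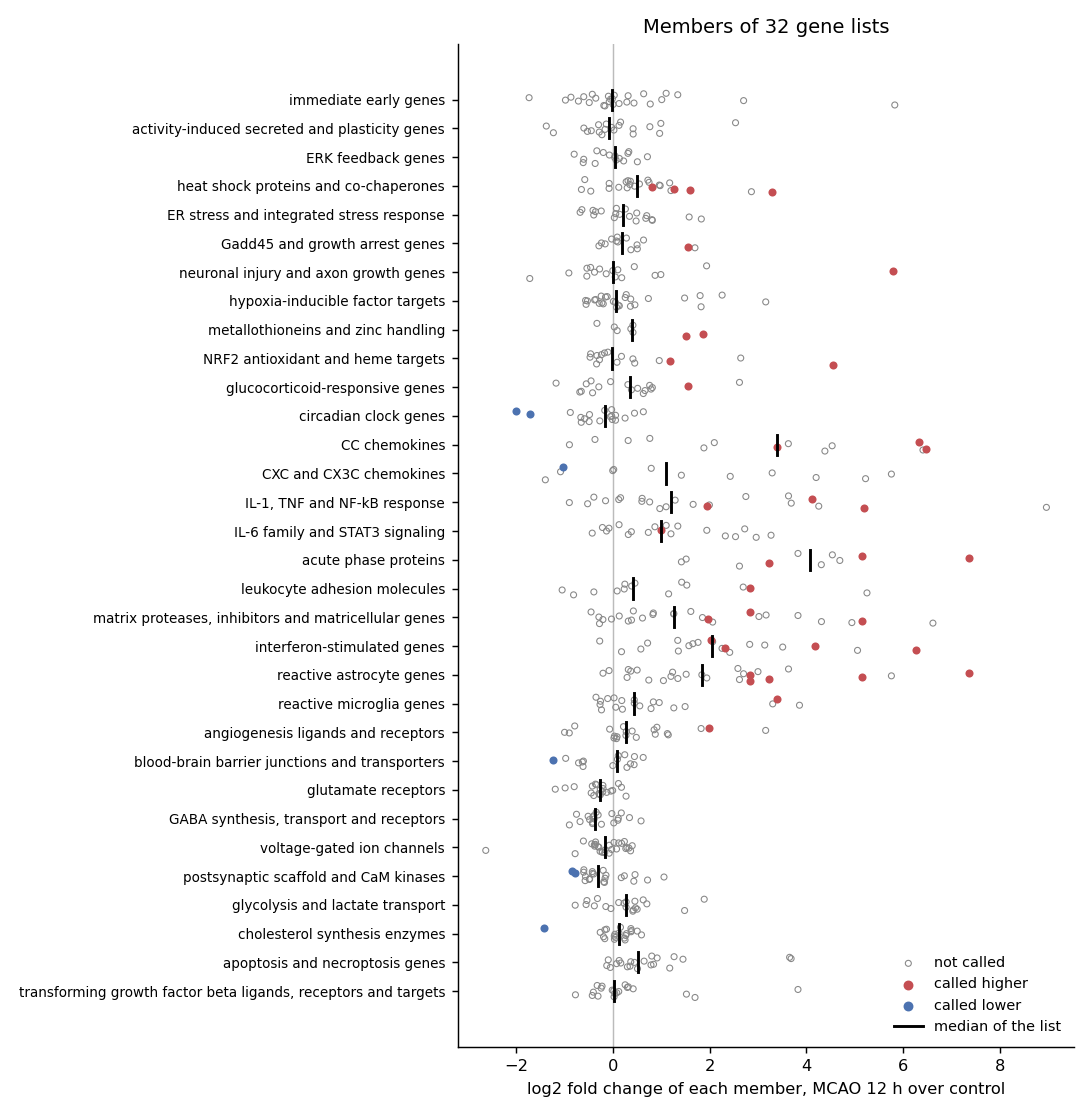
Each point is a gene of the 32 process lists (y axis) at its fitted log2 fold change of MCAO 12 h over control (x axis), with calls higher in red, calls lower in blue and the list median as a bar. Chemokine, acute phase, interferon and reactive astrocyte lists lie mostly to the right of 0, whereas receptor, channel and immediate early lists lie around or slightly left of it.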

How the data were processed

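Bulk libraries were made from polyadenylated RNA by 3′ end sequencing, with spike-in RNA added. Per the labels and the study's methods, the authors aligned reads with STAR (2.5.2b) to GRCm38 and counted them per gene with HTSeq, and the deposited values are raw read counts per gene and library; the strand setting is not given in the sources used here. The columns of a table of the whole series were not used. Rows for spike-ins (92) and for unassigned reads (5) were set aside, and symbols came from Gencode vM21 (46488 of 46983 genes matched). Genes with more than 10 counts in all were tested with edgeR 4.0.16 (R 4.3.3; TMM, quasi-likelihood test) over 48 libraries of 11 groups, with Benjamini-Hochberg adjustment. DESeq2 1.42.0 was an alternative. Counting intervals are exact binomial (95%) and, like the floor of 3 counts, cover counting error only. No pair of libraries held identical values. Named genes were the 12 largest rises and falls by log2 fold change without overlap at a mean of at least 5 CPM, in each of 54 lists up to 4 called members or the most abundant one, and genes called alike in the sham; other list members are given as such. Some genes that meet this rule are not reported here. Members and lists were chosen with earlier results of these data known.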

Additional observations from a re-analysis of the deposited data

Results flagged for a closer look

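In each group of named genes, the highest and the lowest library were compared with the nearest of the others by Dixon's ratio of gap to range, which chance alone exceeds in about 1 of 20 groups. Of 261 groups tested, 23 stood out (8.81%), while 18 groups at or under 3 counts in each library were not tested. No explanation was tested for any of them.

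MCAO library E was the one that stood highest in 9 of them. Its level was 759 CPM for *S100a8* (others up to 106), 903 CPM for *S100a9* (others up to 77.2), 233 CPM for *Il1b* (others up to 18.8), 219 CPM for *Rsad2* (others up to 17.2) and 34.5 CPM for *Hcar2* (others up to 9.41). It was 46.5 CPM for *Oasl2* (others up to 13.04), 31.6 CPM for *Ifitm1* (others up to 13.04), 17.9 CPM for *Irf7* (others up to 4.17) and 55.4 CPM for *Hdc* (others up to 6.47). MCAO library C stood highest for *Hspa1a* at 723 CPM (others up to 64.1), for *Hmox1* at 79.3 CPM (others up to 21.8) and for *Srxn1* at 333 CPM (others up to 189). MCAO library D stood highest for *Slc1a2* at 2738 CPM (others up to 2317) and for the striatal gene *Ppp1r1b* at 604 CPM (others up to 259).

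Among the controls, library C stood highest for *Ifitm3* at 49.1 CPM (others up to 39.6), *Fn1* at 39.5 CPM (others up to 30.1) and *Hba-a1* at 45.2 CPM (others up to 17.4), and library B stood lowest for *Mgp* at 63.0 CPM (others from 97.1). Among the sham libraries, C stood highest for *Arf3* at 691 CPM (others up to 439) and *Ccl12* at 1.85 CPM (others at 0), and B stood highest for *Grin2b* at 1338 CPM (others up to 1105). Sham B stood lowest for *Oasl2* at 4.17 CPM (others from 5.45) and sham A for *Adamts1* at 6.70 CPM (others from 8.57).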

How the results depend on the processing

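DESeq2 called 283 genes for MCAO 12 h against control, 11 for sham against control and 179 for MCAO against sham, beside 171, 7 and 82. With only the 2 groups compared in the fit the counts were 63, 1 and 13. Without the filter on low counts MCAO against sham gave 171 calls. Libraries left out in turn gave 71 to 171 calls for MCAO against control, 3 to 9 for sham against control and 21 to 102 for MCAO against sham. Spike-in scaling called 38 genes higher and 185 lower against the control. Of 27 lists with a call, 12 had none with only the 2 groups compared in the fit, 3 with spike-in scaling, 3 with the replicate block and 1 with DESeq2 size factors. A call was gained in 5 of the 27 lists that had none with spike-in scaling, in 5 without the filter on low counts and in 2 with DESeq2, and spike-in scaling changed the sign of 12 of 54 list medians. With the replicate letter as a block, 153, 4 and 53 genes were called, and *Ccl4*, *Il1b*, *Irf7*, *Rsad2*, *Oasl2*, *Insig1*, *P2ry12*, *S100a9*, *Hbb-bs* and *Lamp5* were the named genes no longer called (adjusted p up to 0.0601). The letters were not taken to pair the samples. Same-letter libraries of MCAO and control had correlated deviations of 0.045, 0.035, 0.037 and 0.189. Those of sham and control had 0.110, -0.093, 0.258 and -0.066, and those of MCAO and sham 0.121, 0.042, 0.132 and -0.263. Libraries with different letters ran from -0.513 to 0.656. The cause of these moves was not tested.

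Of the 77 genes called higher, 12 were called under each of 16 alternatives and 19 whichever library was left out, and of the 94 lower 21 and 34. Of the 62 named genes that were called, 27 were kept with 2 groups in the fit, 54 with spike-in scaling and 52 with the block, and no direction reversed. At the depth of these libraries, genes at or under 3 counts in each control library have only a bound or a ratio with its counting interval.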

Other observations

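Genes outside the named lists and outside the rule for named genes were also called, and those below were chosen after their values were seen, with no test of any grouping. *Cst3*, the protease inhibitor cystatin C, went from a mean of 1539 CPM in the control to 616 CPM at MCAO 12 h (log2 fold change -1.33, SE 0.23, edgeR adjusted p = 0.000414). *Src*, a tyrosine kinase, went from 89.1 to 29.4 CPM (-1.61, SE 0.31, adjusted p = 0.00113), and *Pdpn*, a membrane mucin of reactive glia, from 21.1 to 81.4 CPM (1.93, SE 0.33, adjusted p = 0.000336). These 3 genes were called under each alternative and whichever library was left out.

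*Msn*, which links membrane to actin, rose from 16.5 to 79.2 CPM (log2 fold change 2.25, adjusted p = 0.00382), a call that was lost with MCAO C or any 1 control left out. *Eif2s2*, a translation initiation subunit, went from 234 to 413 CPM (log2 fold change 0.82, adjusted p = 0.000842), and was not called with spike-in scaling (0.54, adjusted p = 0.026). *Nop58*, a core protein of small nucleolar particles, went from 56.7 to 105 CPM (0.89, adjusted p = 0.00113), and was not called with spike-in scaling (0.62, adjusted p = 0.0538), in the 2-group fit (adjusted p = 0.0187) or without control B.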
